A study of Mus musculus with 12 samples.

Results

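The lysosome and autophagy genes are 39 genes picked by symbol for their known roles, and all 39 are listed in both deposited expression tables, of 18223 and 17800 genes. They comprise 7 proteases, 10 glycan-degrading hydrolases, 4 lipid-degrading enzymes and saposins, 7 membrane and luminal proteins, 3 proteins of the proton pump, 2 transcription factors and 6 autophagy proteins. They were measured in primary C57BL/6 mouse neurons, whose mRNA was sequenced on day 10 of 2 treatments meant to model the ageing of neurons. In the oncogene model, neurons over-expressing H-Ras(G12V), a Ras oncogene that signals without pause and was carried by an adeno-associated virus, were compared with wild-type neurons given the fluorescent protein mCherry. In the chemical model, wild-type neurons given etoposide, which traps topoisomerase II on broken DNA, were compared with wild-type neurons given its solvent, DMSO. The 4 groups hold 3 libraries each. The brain region, the age of the mice, the promoter of the virus and the dose of etoposide are not given in the sources used here. Nothing in the labels ties the libraries of a group to separate cultures, so p-values measure the spread between libraries, which may be technical. For the 6 etoposide and DMSO libraries the treatment tag names the opposite group to the title, the library name and the column heading, and the titles were followed. Every direction given for etoposide rests on that choice.

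The lysosome is the acidic compartment in which cells break down proteins, glycans and lipids delivered by endocytosis or by autophagy. A proton pump, the V-ATPase, acidifies it, and autophagy brings in cytoplasm enclosed in double membranes that carry LC3-family proteins. TFEB and TFE3 are transcription factors that bind a site built around CACGTG in the promoters of many lysosomal genes and enter the nucleus when mTORC1 is inactive. An enlarged lysosomal compartment is a known trait of senescent cells, where the acid hydrolase encoded by Glb1 gives the senescence-associated beta-galactosidase stain. Neurons divide no more and rely on this pathway to clear proteins, and inherited loss of several of these enzymes causes neurodegeneration.

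Levels are given as FPKM, fragments per kilobase of transcript per unit of library size, which allows comparison between genes. In the mCherry group the highest of the 39 means were those of Psap, at 517 ± 53.8 FPKM, and Cd63, at 314 ± 116 FPKM, and the lowest was that of Tfeb, at 2.23 ± 0.699 FPKM (SD, n = 3). Of the 39 genes, 33 had an mCherry mean above 10 FPKM.

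Some libraries stood apart, and the members of the pathway followed them. Across all tested genes mCherry libraries 1 and 2 had a rank correlation of 0.997 with each other and of 0.929 and 0.925 with mCherry library 3. Library 3 was the highest mCherry library for 37 of the 39 genes. Etoposide library 3 correlated with its partners 1 and 2 at only 0.811 and 0.881 by rank, and was the lowest etoposide library for 32 of the 39 genes. Such counts were not made over all tested genes, so they do not set the 39 genes apart from others. Results are therefore given with and without mCherry library 3 and etoposide library 3. Fits without mCherry library 3 keep only mCherry libraries 1 and 2, which are nearly alike, as controls. Their p-values rest in part on that narrow control spread. Leaving out the highest control or the lowest treated library of a gene also raises its fold change. The Hras row did not separate the oncogene groups, at 38.4, 51.6 and 33.5 FPKM in the H-Ras(G12V) libraries and 45.9, 43.0 and 44.2 FPKM in the mCherry libraries (limma adjusted p = 0.624), and the labels do not say from which species the delivered sequence came. Neuron markers were present in every library, with summed levels of 933 to 3197 FPKM over 12 genes, beside markers of astrocytes (631 to 3749 FPKM over 10 genes), of the oligodendrocyte lineage (77.9 to 1120 FPKM over 10 genes) and of fibroblasts and mural cells (37.9 to 452 FPKM over 10 genes). In such bulk libraries fewer cells of a type and less RNA per cell cannot be told apart.

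The promoters of these genes were searched for the letters that TFEB and TFE3 bind. RefSeq promoters of GRCm38.p6, from 250 bases before to 50 bases after the start, matched 35 of the 39 genes by symbol. The remaining genes are Asah1, Atp6v1h, Becn1 and Ctsb. The palindrome CACGTG, which reads alike on both strands, stood in 12 of the 35 genes (34.3%), against 7.15% of all 32851 promoters of the same length and 11.8% of the 10205 expressed genes with an entry. The genes holding it were Atp6v0d1, Ctsa, Ctsd, Ctsf, Ctsl, Gaa, Gla, Glb1, Lamp1, Mcoln1, Naglu and Sgsh. The longer palindrome TCACGTGA, which contains CACGTG, stood in 5 of the 35 genes (14.3%), 0.974% of all promoters and 2.21% of the expressed genes. CACATG, searched on both strands, stood in 7 of the 35 genes (20%), 14.2% of all promoters and 10.1% of the expressed genes. Shares of genes count a gene with the motif in any of its promoters, and shares of promoters count each promoter. The stretches of 100 bases below are shown because they set genes that rose with H-Ras(G12V) and hold the motif (Ctsd, Ctsl, Gla) beside genes that hold several copies and did not pass the test (Lamp1, Mcoln1) and genes that rose with no copy in 300 bases (Gpnmb, Cd63). Capitals mark CACGTG. They are printed 5′ to 3′ on the strand of the gene, and their coordinates belong to GRCm38.p6, not to mm9, the build named for the expression tables.
Ctsd, chr7:142387868-142387967, minus strand: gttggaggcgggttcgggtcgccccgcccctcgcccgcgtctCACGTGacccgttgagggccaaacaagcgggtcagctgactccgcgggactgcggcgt
Ctsl, chr13:64370671-64370770, minus strand: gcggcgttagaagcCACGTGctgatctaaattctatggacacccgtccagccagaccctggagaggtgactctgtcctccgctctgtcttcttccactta
Gla, chrX:134601156-134601255, minus strand: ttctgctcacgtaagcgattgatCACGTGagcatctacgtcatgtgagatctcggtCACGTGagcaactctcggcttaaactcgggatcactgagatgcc
Lamp1, chr8:13159061-13159160, plus strand: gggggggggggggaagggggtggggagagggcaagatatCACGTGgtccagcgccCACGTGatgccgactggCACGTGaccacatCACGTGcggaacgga
Mcoln1, chr8:3500419-3500518, plus strand: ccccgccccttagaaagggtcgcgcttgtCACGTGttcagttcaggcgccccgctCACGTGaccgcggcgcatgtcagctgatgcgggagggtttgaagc
Gpnmb, chr6:49036418-49036517, plus strand: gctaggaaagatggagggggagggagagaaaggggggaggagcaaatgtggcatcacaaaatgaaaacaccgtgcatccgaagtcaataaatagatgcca
Cd63, chr10:128909245-128909344, plus strand: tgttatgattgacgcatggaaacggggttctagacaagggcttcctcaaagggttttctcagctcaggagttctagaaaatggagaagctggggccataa
Lamp1 held 4 copies within these 100 bases, Gla and Mcoln1 held 2 each, and Ctsd and Ctsl held 1 each. Ctsd held another copy further from the start, so that it had 2 in 300 bases, as did Gla and Mcoln1. The median log2 fold change with H-Ras(G12V) was 0.46 over the 12 genes with CACGTG and 0.43 over the 23 without it, and with etoposide it was 0.38 and 0.36. Of the 8 genes that rose with H-Ras(G12V), 3 held it. A match of letters is a description of the sequence and does not show binding.

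With H-Ras(G12V) 6 genes of lysosomal hydrolases and 2 of lysosomal membrane proteins rose in these bulk libraries. The proton pump genes and 5 of the 6 autophagy genes had log2 fold changes between -0.13 and 0.09. Of the 39 genes, 8 rose (Ctsd, Ctsl, Ctsz, Hexa, Gla, Gusb, Cd63 and Gpnmb) and 1, Ulk1, fell, in limma on log2(FPKM + 1) with Benjamini-Hochberg adjustment over 12724 tested genes and a threshold of 0.05. Among all tested genes 10.3% rose and 6.67% fell by the same rule. The log2 fold change was above 0 for 36 of the 39 genes, with a median of 0.46, against a median of 0.05 over all tested genes. In 20 of the 39 genes (51.3%) every H-Ras(G12V) library lay above every mCherry library, against 23.7% of all tested genes, and in 1 gene (Ulk1) every library lay below, against 16.6%. Unadjusted p-values under 0.05 were found for 23 of the 39 genes (59.0%) and 34.4% of all tested genes.

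**Figure D1:**
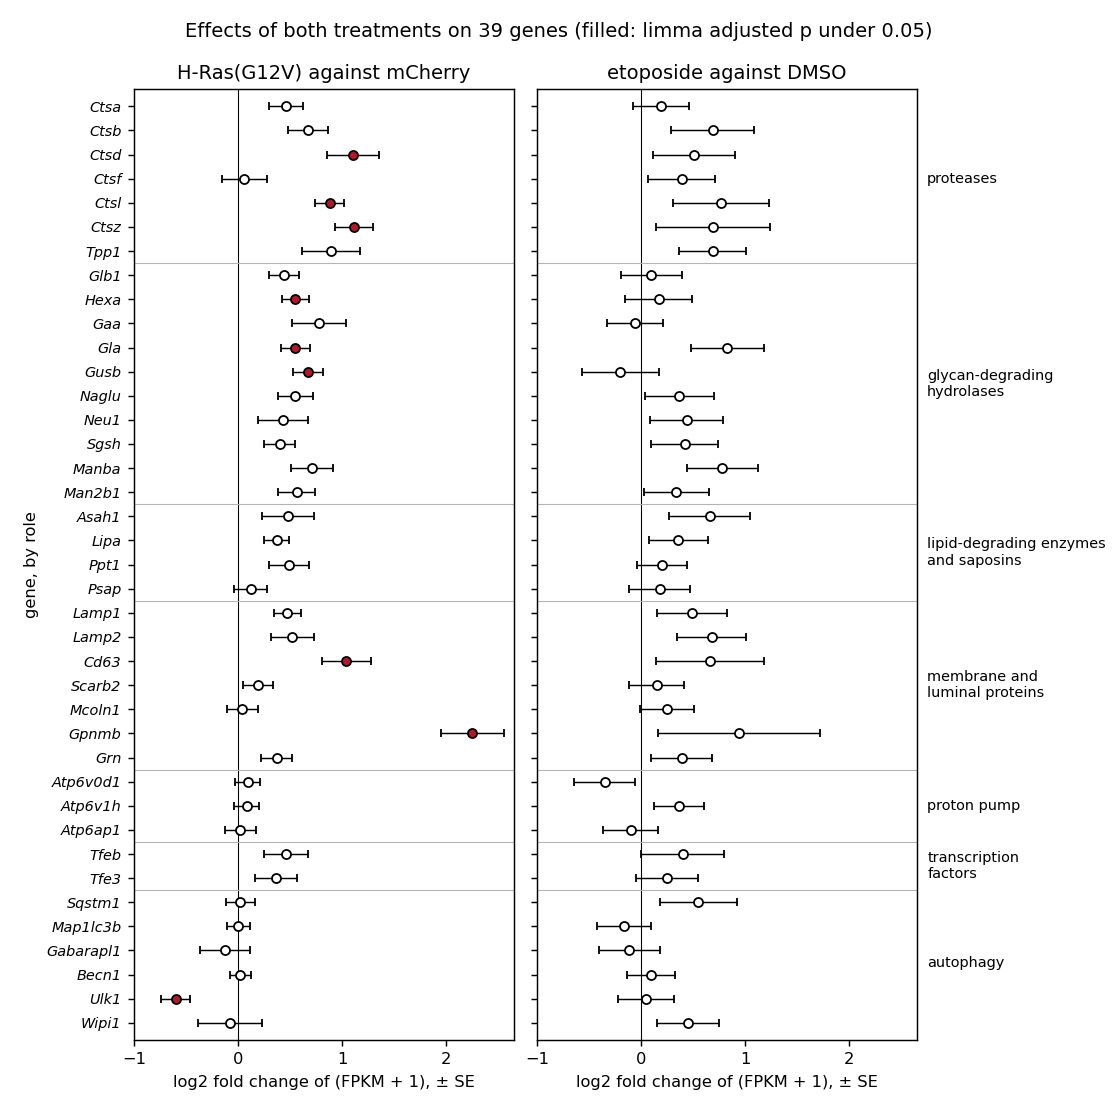
Log2 fold change of (FPKM + 1) with its standard error for each of the 39 genes, ordered by role, for H-Ras(G12V) against mCherry (left) and etoposide against DMSO (right), 3 libraries per group. Filled points have a limma adjusted p under 0.05: 9 genes on the left, of which Ulk1 lies below 0, and 0 genes on the right.

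The counts moved with single libraries. Without mCherry library 3, 27 of the 39 genes rose and 1 fell, while 25.4% of all tested genes rose and 19.5% fell, and the median log2 fold change of the 39 genes was 0.60. The controls of that fit were mCherry libraries 1 and 2 alone, with a rank correlation of 0.997. Leaving out any of the other libraries lowered the count of genes that rose, to 2 without H-Ras(G12V) library 1, 3 without library 2 and 4 without library 3, and to 2 without mCherry library 1 and 3 without library 2. Ulk1 passed in none of these 5 fits, in which between 2.43% and 5.32% of all tested genes rose. With mCherry libraries 1 and 2 averaged into 1 replicate, since they resembled each other so closely, Ctsl, Ctsz and Gpnmb rose and none of the 39 genes fell, with 3.01% of all tested genes rising. In 1 fit of all 12 libraries, which pools the spread of the 4 groups, none of the 9 genes passed (adjusted p = 0.103 to 0.309) and 1.81% of all tested genes rose. Across these fits the direction of the 9 called genes did not change.

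The proteases had the highest median log2 fold change of the roles, at 0.88, and 3 of 7 rose. Cathepsin D, the main aspartic protease of the lysosome, is encoded by Ctsd, which stood at 552, 719 and 424 FPKM in the H-Ras(G12V) libraries and at 225, 224 and 340 FPKM in the mCherry libraries. The groups did not overlap, and the library nearest to the other group was mCherry library 3. Ctsd rose by 1.10 on the log2 scale (SE 0.25, adjusted p = 0.0278), and the call ended without H-Ras(G12V) library 1 or 2 or mCherry library 1 or 2 (adjusted p = 0.0803 to 0.0957). Ctsl, which encodes the cysteine protease cathepsin L, read 111, 111 and 87.0 FPKM with H-Ras(G12V) and 52.2, 53.4 and 59.8 FPKM with mCherry. All control values of Ctsl lay close together, and all treated values were well above them. The log2 fold change of Ctsl was 0.88 (SE 0.14, adjusted p = 0.0103), with an adjusted p of 0.0535 without H-Ras(G12V) library 1. Ctsz, which encodes the carboxypeptidase cathepsin Z, read 44.8, 61.4 and 49.6 FPKM against 20.9, 20.8 and 29.5 FPKM. It too showed no overlap, and its log2 fold change was 1.11 (SE 0.18, adjusted p = 0.0120), with an adjusted p of 0.0508 without mCherry library 1.

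The other 4 proteases did not pass the test. Ctsb, which encodes cathepsin B, had a log2 fold change of 0.67 (adjusted p = 0.0535), and Tpp1, which encodes the tripeptidyl peptidase lost in a childhood neuronal ceroid lipofuscinosis, had 0.89 (adjusted p = 0.0696). In Tpp1 the mCherry libraries read 17.8, 16.7 and 36.1 FPKM and the H-Ras(G12V) libraries 39.8, 41.1 and 44.6 FPKM, so that mCherry library 3 lay near the treated values. Without that library the log2 fold change of Tpp1 was 1.23 (adjusted p = 0.000124). Ctsa, which encodes the protective protein that stabilises beta-galactosidase and neuraminidase, had a log2 fold change of 0.46 (adjusted p = 0.0976), and Ctsf, which encodes cathepsin F, had 0.06 (adjusted p = 0.874).

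Of the 10 glycan-degrading hydrolases, 3 rose, and in 9 every H-Ras(G12V) library lay above every mCherry library. Their log2 fold changes ranged from 0.40 to 0.78, with a median of 0.55. Gusb, which encodes beta-glucuronidase, read 18.9, 18.7 and 17.2 FPKM with H-Ras(G12V) and 11.4, 9.28 and 12.8 FPKM with mCherry, a log2 fold change of 0.67 (SE 0.14, adjusted p = 0.0229). Hexa, which encodes the alpha subunit of the hexosaminidase lost in Tay-Sachs disease, read 56.0, 54.1 and 54.6 FPKM against 35.1, 33.5 and 43.7 FPKM, a log2 fold change of 0.55 (SE 0.13, adjusted p = 0.0330). Gla, which encodes the alpha-galactosidase lost in Fabry disease, read 8.92, 8.89 and 9.69 FPKM against 5.91, 5.02 and 6.96 FPKM, a log2 fold change of 0.55 (SE 0.14, adjusted p = 0.0392). In each of these genes the treated libraries lay within a narrow range and the groups did not overlap. All of these calls ended when any library but mCherry library 3 was left out, with adjusted p-values of 0.0636 to 0.0942 for Gusb, 0.0709 to 0.138 for Hexa and 0.0788 to 0.153 for Gla. The calls of Hexa and Gla also ended after scaling to a common sum (adjusted p = 0.0785 and 0.0807).

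Glb1, the gene of the senescence-associated beta-galactosidase activity, did not pass. It read 21.4, 22.6 and 25.2 FPKM with H-Ras(G12V) and 15.6, 14.9 and 19.9 FPKM with mCherry. The groups did not overlap, and the log2 fold change was 0.44 (SE 0.14, adjusted p = 0.0765), or 0.56 without mCherry library 3 (adjusted p = 0.00502). Gaa, which encodes the acid alpha-glucosidase that clears lysosomal glycogen, had the highest log2 fold change of the hydrolases, 0.78 (adjusted p = 0.0780), with mCherry library 3 at 80.3 FPKM against 80.4 FPKM in the lowest H-Ras(G12V) library. For the remaining hydrolases the log2 fold changes were 0.71 for the beta-mannosidase gene Manba (adjusted p = 0.0540), 0.56 for the alpha-mannosidase gene Man2b1, 0.55 for Naglu and 0.40 for Sgsh, both of heparan sulfate breakdown, and 0.43 for the neuraminidase gene Neu1. Without mCherry library 3 all 10 hydrolases and all 7 proteases rose, in a fit in which 25.4% of all tested genes rose.

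**Figure D2:**
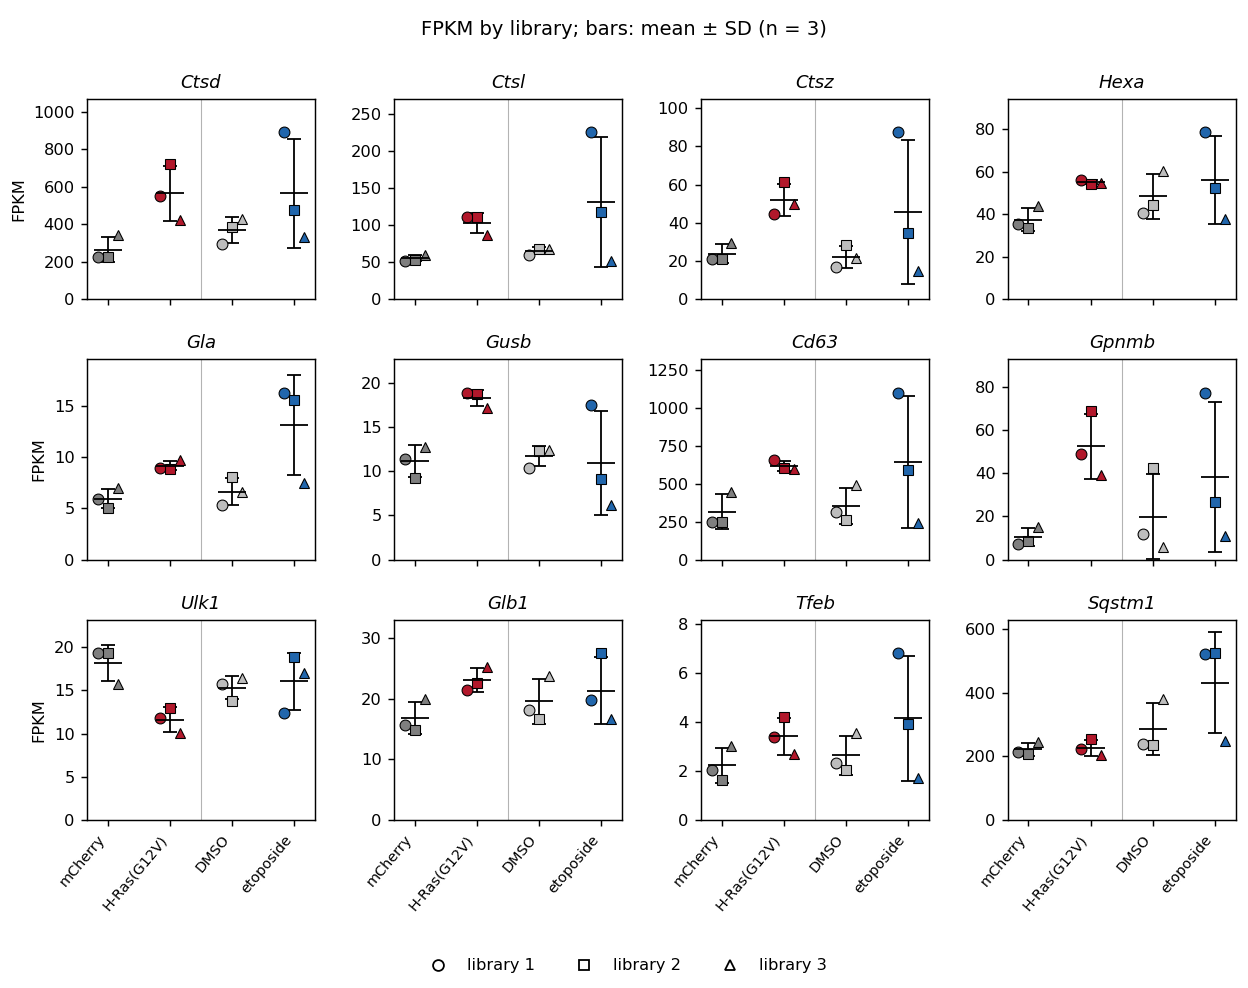
FPKM by library for the 9 genes called with H-Ras(G12V) and for Glb1, Tfeb and Sqstm1, on linear axes that start at 0, with symbols for library number and bars for the mean and SD of 3 libraries. In Gpnmb the H-Ras(G12V) libraries read 39.1 to 69.0 FPKM and the mCherry libraries 7.30 to 15.0 FPKM, and the etoposide libraries spread from 11.0 to 77.3 FPKM.

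The lipid-degrading group held no gene that passed. The log2 fold changes were 0.49 for Ppt1, which encodes a palmitoyl-protein thioesterase, 0.48 for the acid ceramidase gene Asah1, 0.37 for Lipa, which encodes lysosomal acid lipase, and 0.12 for Psap, the precursor of the saposins that present lipids to hydrolases. Only Lipa of these 4 had groups that did not overlap, and its adjusted p was 0.0720. Without mCherry library 3, Asah1, Lipa and Ppt1 rose, and Psap did not pass (log2 fold change 0.20, adjusted p = 0.280).

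Gpnmb gave the largest change of the 39 genes. It encodes a transmembrane glycoprotein of lysosomes and melanosomes that is known to be high in lipid-laden macrophages and microglia. It read 49.1, 69.0 and 39.1 FPKM in the H-Ras(G12V) libraries and 7.30, 8.71 and 15.0 FPKM in the mCherry libraries. The lowest treated library exceeded the highest control library, and the ratio of the group means was 5.06. The log2 fold change was 2.25 (SE 0.30, adjusted p = 0.00590), and Gpnmb passed without each library in turn (adjusted p = 0.000146 to 0.0338) but not in 1 fit of the 12 libraries (adjusted p = 0.103). Cd63, which encodes a tetraspanin of late endosomes, lysosomes and exosomes, read 655, 605 and 595 FPKM against 249, 245 and 447 FPKM. Its treated libraries lay together, and mCherry library 3 stood between them and the other controls. The log2 fold change was 1.04 (SE 0.24, adjusted p = 0.0310), and the call ended when any library but mCherry library 3 was left out (adjusted p = 0.0898 to 0.110).

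Lamp1 and Lamp2 encode the abundant glycoproteins that line the lysosomal membrane, and neither passed. Lamp1 read 399, 405 and 380 FPKM against 259, 269 and 330 FPKM, without overlap (log2 fold change 0.47, SE 0.13, adjusted p = 0.0527), and Lamp2 had a log2 fold change of 0.52 (adjusted p = 0.133). Both rose without mCherry library 3, by 0.58 (adjusted p = 0.00213) and 0.74 (adjusted p = 0.00380). Grn, the progranulin gene, had a log2 fold change of 0.37 (adjusted p = 0.133) in groups that did not overlap. Scarb2, which encodes a sorting receptor of the lysosomal membrane, had 0.19, and Mcoln1, which encodes the calcium channel of the lysosomal membrane and whose promoter is printed above, had 0.04 (adjusted p = 0.890).

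Neither transcription factor passed the test with all libraries. Tfeb read 3.38, 4.19 and 2.68 FPKM with H-Ras(G12V) and 2.04, 1.64 and 3.0 FPKM with mCherry, and the groups overlapped through mCherry library 3 (log2 fold change 0.46, SE 0.21, adjusted p = 0.168). Tfe3 read 16.4, 21.6 and 16.2 FPKM against 12.4, 11.7 and 18.0 FPKM, with the same overlap (log2 fold change 0.36, SE 0.20, adjusted p = 0.241). Without mCherry library 3 both rose, Tfeb by 0.63 (adjusted p = 0.0202) and Tfe3 by 0.54 (adjusted p = 0.0184). These values are mRNA levels, and the proteins are known to be controlled mainly by where in the cell they lie, which was not measured.

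The 3 proton pump genes lay close to control levels, with log2 fold changes of 0.09 for Atp6v0d1, 0.08 for Atp6v1h and 0.02 for the accessory subunit gene Atp6ap1. Their 95% confidence intervals ran at most from -0.34 to 0.39, the interval of Atp6ap1. Without mCherry library 3 their values were 0.14, 0.12 and 0.17, and none passed.

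Autophagy genes had a median log2 fold change of -0.04, below that of every other role. Ulk1, which encodes the kinase that starts autophagosome formation, read 11.8, 12.9 and 10.1 FPKM with H-Ras(G12V) and 19.3, 19.3 and 15.7 FPKM with mCherry. Every treated library lay below every control library, and Ulk1 fell by 0.60 on the log2 scale (SE 0.14, adjusted p = 0.0328). Its call ended when any library but mCherry library 3 was left out (adjusted p = 0.0507 to 0.127), while the log2 fold change stayed between -0.51 and -0.69. Sqstm1, which encodes the cargo receptor p62, read 222, 255 and 203 FPKM against 214, 209 and 246 FPKM, a log2 fold change of 0.02 (95% interval -0.30 to 0.34). The values were 0.00 for the LC3 gene Map1lc3b (interval -0.26 to 0.27), 0.02 for Becn1, which encodes a subunit of the lipid kinase complex of autophagy (interval -0.22 to 0.26), and -0.13 for Gabarapl1, an LC3 relative (interval -0.69 to 0.43). Wipi1, which encodes a lipid-binding protein of forming autophagosomes, had -0.08 with all libraries and 0.31 without mCherry library 3 (adjusted p = 0.0383), a library in which it read 34.1 FPKM against 15.2 and 14.1 FPKM in the other controls.

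Scaling moved the 39 genes together with all others. Bringing the libraries to a common sum moved the median of all tested genes from 0.05 to -0.07 and that of the 39 genes from 0.46 to 0.32, a distance of 0.40 and 0.39. The share of higher among all called genes went from 60.7% to 39.3%, and to 49.3% with median-of-ratios scaling, so directions of genes with small changes depend on the scale. Under both scalings 6 of the 39 genes rose and Ulk1 fell. Of all tested genes 6.77% rose and 10.5% fell with a common sum, and 8.26% and 8.51% with median-of-ratios scaling.

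Markers of other cell types differed between the oncogene groups beside these genes. The summed level of 15 microglia markers was 76.8, 115 and 43.7 FPKM in the H-Ras(G12V) libraries and 42.8, 50.5 and 20.4 FPKM in the mCherry libraries. Of the 9 tested, 2 rose, both themselves lysosomal genes and 1 of them Cd68, and none fell. Tyrobp, an adaptor of microglial receptors, read 13.6, 20.0 and 2.97 FPKM against 5.47, 4.76 and 0 FPKM, while no microglia marker was at 0 in all libraries. H-Ras(G12V) library 2 was the highest of its group for both Gpnmb and the microglia sum, and mCherry library 3 was the highest of its group for Gpnmb and the lowest for that sum. Astrocyte markers summed to 2603 to 3749 FPKM with H-Ras(G12V) and to 1205, 1212 and 3163 FPKM with mCherry, library 3 being the last, and 3 of 10 rose. Of 9 tested oligodendrocyte lineage markers 6 rose (922 to 1120 FPKM against 229 to 763 FPKM), of 10 fibroblast and mural markers 9 fell (37.9 to 41.5 FPKM against 189 to 278 FPKM), and of 12 neuron markers 1 rose and 2 fell (1574 to 1888 FPKM against 2402 to 2746 FPKM). The neuron sums cover shifts in both directions within the mCherry group. In mCherry libraries 1, 2 and 3 Tubb3 read 704, 737 and 110 FPKM and Stmn2 747, 765 and 212 FPKM. Slc17a7 read 49.9, 54.0 and 407 FPKM there and Snap25 161, 175 and 564 FPKM. The 6 endothelial markers summed to 1.91 to 2.19 FPKM with H-Ras(G12V) and 1.52 to 5.14 FPKM with mCherry. The part of these cell types in the lysosomal values was not tested.

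**Figure D3:**
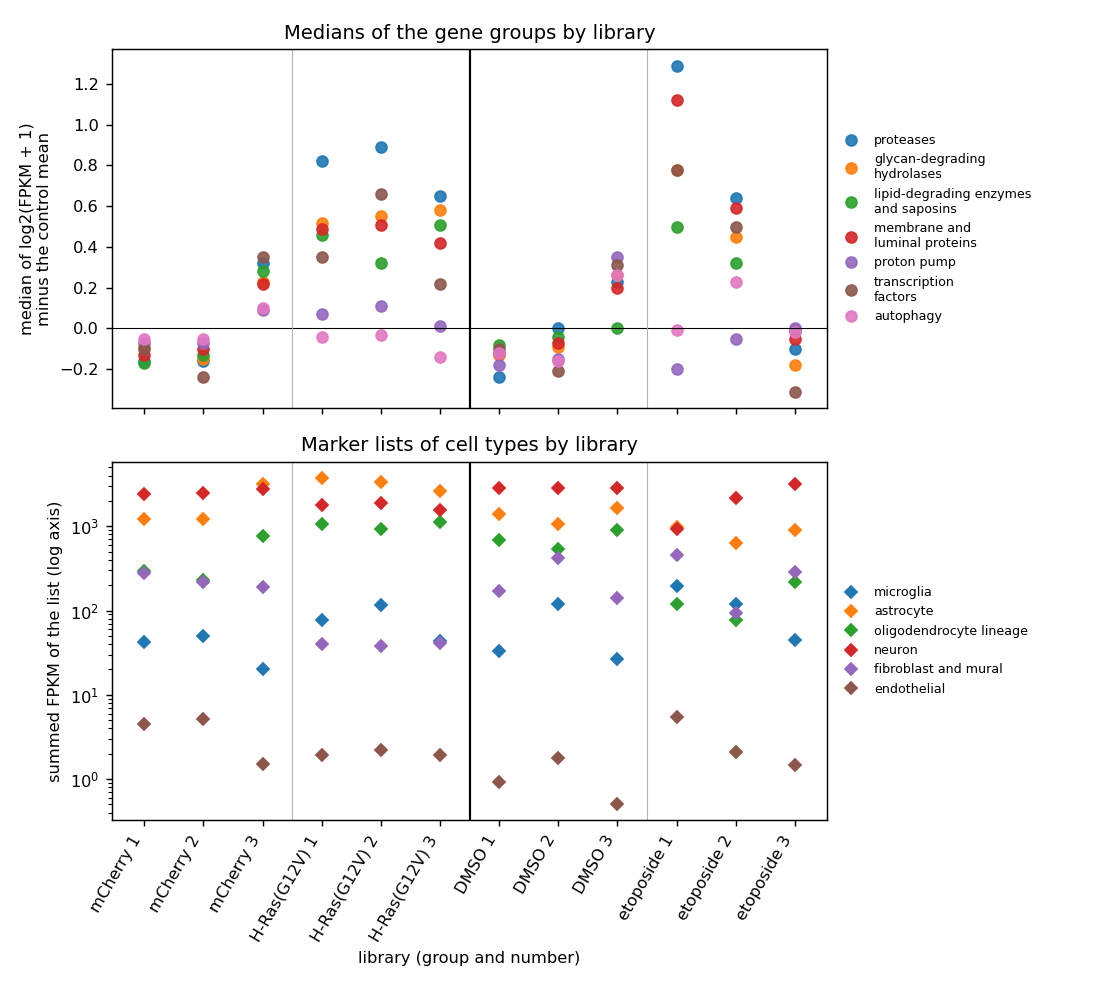
Top: median over the genes of each role of log2(FPKM + 1) minus the mean of the control libraries of the same table, by library. Bottom: summed FPKM of each marker list on a log axis. The proteases reach 1.29 in etoposide library 1 and -0.10 in etoposide library 3, and mCherry library 3 has an astrocyte sum of 3163 FPKM against 1205 and 1212 FPKM in the other mCherry libraries.

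Etoposide gave no call among the 39 genes, with libraries that disagreed. By the same limma rule 0 of 39 genes passed, and 0.453% of the 12371 tested genes did, all of them lower. Unadjusted p-values under 0.05 were found for 2 of the 39 (5.13%), Gla and Manba, both with an adjusted p of 0.357, and for 13.9% of all tested genes. The log2 fold change was above 0 for 33 of the 39 genes, with a median of 0.37 against 0.09 over all tested genes. Without etoposide library 1 that median was 0.17, and without library 3 it was 0.63. In 3 genes (Tpp1, Manba and Atp6v1h) every etoposide library lay above every DMSO library, against 7.64% of all tested genes, and in none did every library lie below, against 8.17%.

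For most of the 39 genes the etoposide libraries were spread along a common order. In 27 of the 39 genes library 1 was above library 2 and library 2 above library 3, and in 25 genes libraries 1 and 2 both lay above all DMSO libraries. Library 3 lay within the DMSO range for 23 genes, above it for 5 and below it for 11. The median over the 39 genes, relative to the DMSO mean, was 0.74 in library 1, 0.46 in library 2 and -0.08 in library 3 on the log2 scale. The medians of the proton pump and autophagy genes departed from this order. In libraries 1, 2 and 3 they were -0.20, -0.05 and 0.00 for the pump genes and -0.01, 0.23 and -0.02 for the autophagy genes. DMSO library 3 was the highest of its group for 30 of the 39 genes. None of the counts in this paragraph was made over all tested genes, so they cannot show a trait of these 39 genes.

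**Figure D4:**
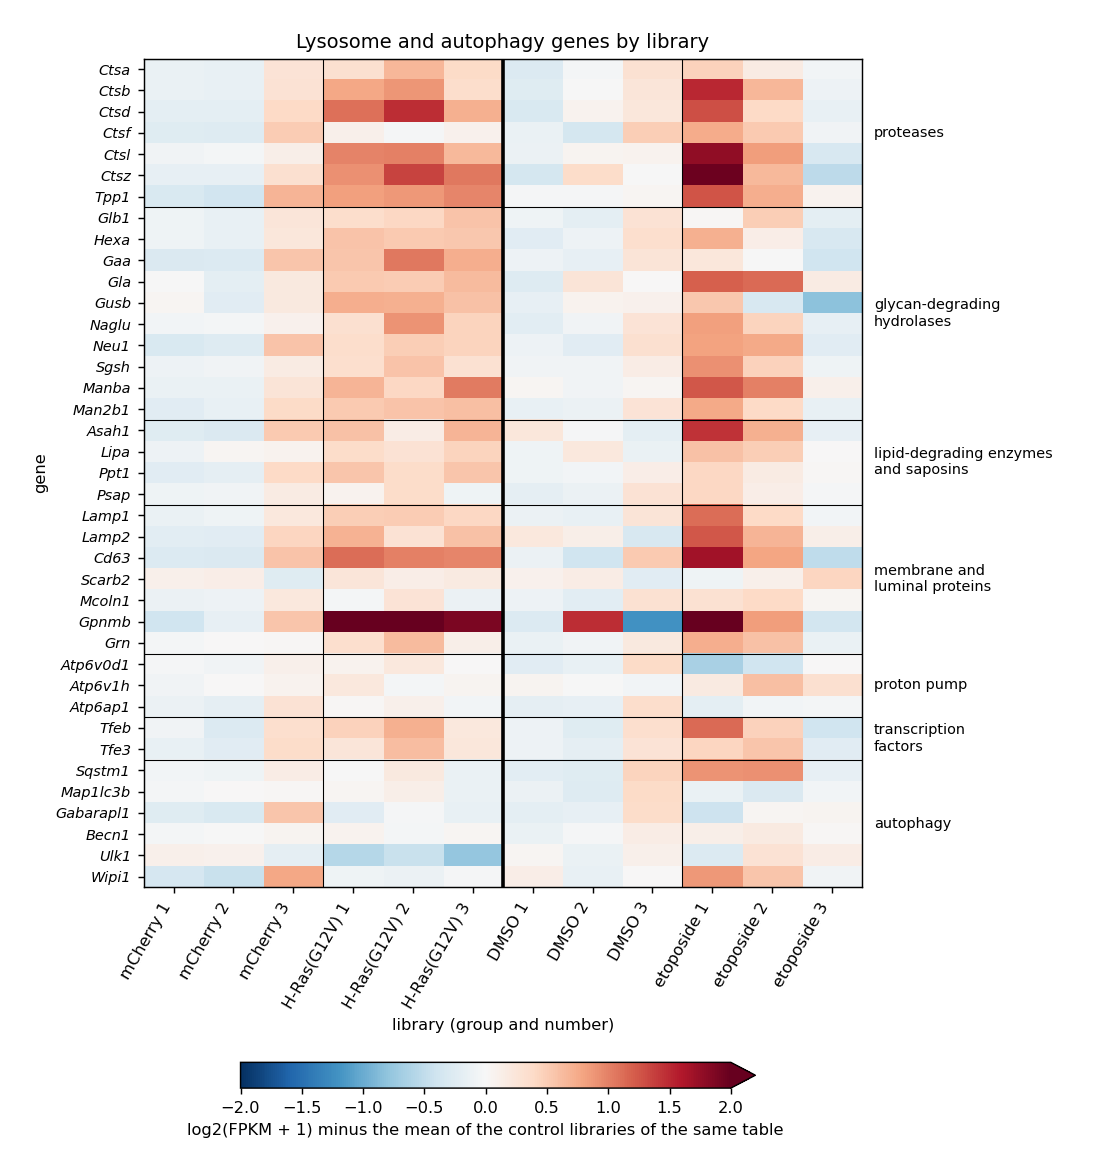
Log2(FPKM + 1) of each of the 39 genes in each of the 12 libraries, minus the mean of the 3 control libraries of the same table, with colours ending at 2. The H-Ras(G12V) libraries resemble each other, and mCherry library 3 lies above the other mCherry libraries for 37 genes. For most genes the etoposide libraries go from high in library 1 to near the DMSO level in library 3. The medians of the proton pump and autophagy genes do not follow that order.

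Proteases again had the highest median among the roles, 0.69, and none passed. Ctsd read 891, 478 and 330 FPKM with etoposide and 295, 383 and 429 FPKM with DMSO (log2 fold change 0.51, SE 0.39, adjusted p = 0.499). Ctsl read 226, 118 and 52.0 FPKM against 60.4, 67.6 and 68.5 FPKM (log2 fold change 0.77, SE 0.46, adjusted p = 0.427). In both genes library 1 lay far above the controls and library 3 within or below their range. Ctsz showed the widest relative span of the proteases, at 87.4, 34.4 and 14.8 FPKM against 16.8, 28.2 and 21.5 FPKM. Tpp1 was the only protease without overlap, at 57.6, 39.7 and 24.7 FPKM against 23.2, 23.1 and 24.3 FPKM (log2 fold change 0.69, SE 0.32, adjusted p = 0.368).

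The glycan-degrading hydrolases were divided, with a median of 0.35 and a range from -0.20 for Gusb to 0.83 for Gla. Gla read 16.3, 15.6 and 7.50 FPKM against 5.31, 8.02 and 6.61 FPKM, and Manba read 9.55, 7.93 and 3.76 FPKM against 3.56, 3.22 and 3.57 FPKM. In both, libraries 1 and 2 were far above DMSO and library 3 was near it. Glb1 read 19.8, 27.5 and 16.7 FPKM against 18.2, 16.7 and 23.8 FPKM, a log2 fold change of 0.10 (SE 0.29, adjusted p = 0.861). Gusb read 17.5, 9.13 and 6.21 FPKM against 10.4, 12.3 and 12.4 FPKM, so that only library 1 exceeded the controls. Hexa read 78.5, 52.2 and 37.8 FPKM against 40.5, 44.3 and 60.2 FPKM (log2 fold change 0.17).

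Among the lipid-degrading and membrane genes the log2 fold changes with etoposide ran from 0.15 to 0.94. Gpnmb again had the highest, 0.94, with the widest error (SE 0.78, adjusted p = 0.529), since it read 77.3, 26.6 and 11.0 FPKM with etoposide and 11.8, 42.2 and 5.67 FPKM with DMSO. DMSO library 2, the high control, also had the highest DMSO sum of microglia markers, 118 FPKM against 33.5 and 26.9 FPKM. Cd63 read 1099, 588 and 239 FPKM against 313, 258 and 488 FPKM, and Lamp1 653, 394 and 289 FPKM against 275, 271 and 359 FPKM. In each, etoposide library 3 was below at least 1 control.

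Tfeb read 6.81, 3.92 and 1.72 FPKM with etoposide and 2.33, 2.04 and 3.53 FPKM with DMSO (log2 fold change 0.40, SE 0.40, adjusted p = 0.599), and Tfe3 18.7, 20.3 and 11.4 FPKM against 12.6, 11.9 and 16.7 FPKM. Both had 2 libraries above the controls and library 3 below them. Sqstm1 read 522, 525 and 249 FPKM against 240, 236 and 381 FPKM (log2 fold change 0.55, SE 0.37, adjusted p = 0.458). Ulk1 read 12.4, 18.8 and 17.0 FPKM against 15.7, 13.8 and 16.4 FPKM, a log2 fold change of 0.05 (SE 0.27). The remaining autophagy genes had log2 fold changes of 0.45 for Wipi1, 0.10 for Becn1, -0.11 for Gabarapl1 and -0.16 for Map1lc3b. Over the 6 autophagy genes the median was 0.08. The proton pump genes had log2 fold changes of -0.35 for Atp6v0d1, 0.37 for Atp6v1h and -0.10 for Atp6ap1.

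Without etoposide library 3, 12 of the 39 genes rose and none fell, in a fit in which 18.3% of all tested genes rose and 13.3% fell. They were Ctsb, Ctsl, Ctsz and Tpp1 of the proteases, Gla, Neu1 and Manba of the hydrolases, Asah1, Lamp2, Cd63, Sqstm1 and Wipi1. Ctsl had a log2 fold change of 1.31 (adjusted p = 0.0100) and Sqstm1 of 0.91 (adjusted p = 0.0392) in that fit, Glb1 of 0.26 (adjusted p = 0.494) and Gpnmb of 1.59 (adjusted p = 0.101). Leaving out any of the other 5 libraries left the count of the 39 genes at 0. Microglia markers summed to 198, 118 and 44.4 FPKM with etoposide, following the order of the lysosomal genes, and to 33.5, 118 and 26.9 FPKM with DMSO, and none of 10 tested passed. Most of that sum in etoposide libraries 1 and 2 was Cd68, at 97.4 and 77.5 FPKM, while Tyrobp read 15.0, 4.14 and 5.05 FPKM and C1qa 7.06, 1.18 and 2.37 FPKM. Neuron markers summed to 933, 2193 and 3197 FPKM with etoposide and 2838 to 2871 FPKM with DMSO. Oligodendrocyte lineage markers summed to 77.9 to 220 FPKM against 539 to 908 FPKM, with 3 of 8 tested lower, astrocyte markers to 631 to 990 FPKM against 1051 to 1628 FPKM, fibroblast and mural markers to 92.3 to 452 FPKM against 139 to 421 FPKM, and endothelial markers to 1.46 to 5.40 FPKM against 0.510 to 1.77 FPKM. Their part in the values of the 39 genes was not tested.

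The H-Ras(G12V) effect and the etoposide effect, which share no control library, were compared by a contrast over the 12 libraries. The difference passed for 0 of the 39 genes (limma, adjusted over 12179 genes), against 2.78% of all tested genes, and the median difference was 0.04 on the log2 scale. Unadjusted p-values under 0.05 were found for 17.3% of all tested genes and for 2 of the 39 (5.13%), Gaa, whose difference was 0.84 (95% interval 0.04 to 1.64, adjusted p = 0.268), and Ulk1, whose difference was -0.65 (interval -1.26 to -0.04, adjusted p = 0.260). The intervals were wide. For Gpnmb the difference was 1.32 with an interval from -0.78 to 3.41, for Ctsd 0.58 with -0.47 to 1.63, and for Glb1 0.34 with -0.33 to 1.01, so the effects were not shown to be alike. Without etoposide library 1 the difference of Gusb was 1.24 and passed (adjusted p = 0.0431), from 0.87 with all libraries (adjusted p = 0.292).

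Another 131 genes of the lysosome and of autophagy were examined in the same fits. With H-Ras(G12V), 11 of 129 tested rose (8.53%, against 10.3% of all tested genes) and 3 fell (2.33%, against 6.67%), so the shares called lay below those of all genes. Their median log2 fold change was 0.14, against 0.05. Among the larger increases were those of Cd68, a lysosomal glycoprotein of phagocytes, at 1.74 (adjusted p = 0.0298), the dipeptidyl peptidase gene Ctsc at 0.90 (adjusted p = 0.0114) and the pump subunit gene Atp6v0e at 0.83 (adjusted p = 0.0336). Ctsk, which encodes the collagen-degrading cathepsin K, fell by 1.62 (adjusted p = 0.00636), the iduronate sulfatase gene Ids fell by 0.93 (adjusted p = 0.0108) and Rragb, which encodes a GTPase that recruits mTORC1 to lysosomes, fell by 0.49 (adjusted p = 0.0236).

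By role, of 8 further proteases 2 rose and 1 fell (median 0.52), of 21 further hydrolases 5 rose and 1 fell (median 0.36), and of 24 membrane and sorting genes 3 rose (median 0.38). Of 16 further pump genes 1 rose (median 0.08), of 16 tested mTORC1 and transcription factor genes 1 fell (median 0.02), and of 44 further autophagy genes 0 passed (median 0.01, with 6 at an unadjusted p under 0.05). Without mCherry library 3, 47 of these genes rose (36.4%, against 25.4% of all tested genes) and 9 fell (6.98%, against 19.5%), and without any 1 of the other 5 libraries 0 to 6 rose (0% to 4.65%, against 2.43% to 5.32%). With etoposide 0 of 128 tested passed, 11 had an unadjusted p under 0.05 (8.59%, against 13.9%) and the median was 0.22, against 0.09. Without etoposide library 3, 30 of them rose (23.4%, against 18.3%) and 6 fell (4.69%, against 13.3%).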

How the data were processed

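The authors deposited 2 tables of FPKM per gene symbol, 1 per model with 6 libraries each, per the file headers. HISAT, Bowtie2, RSEM and the build mm9 are listed, without roles, in the submitters' processing notes. Further filters or scaling are not given in the sources used here. No counts are in the tables and read totals were not derived, so precision was judged from the spread between libraries. The tables were treated as normalised separately, and each effect was fitted within its own table.

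Genes averaging 1 FPKM or more across the 6 libraries were tested on the scale log2(FPKM + 1) by limma 3.58.1 in R 4.3.3 (lmFit, eBayes with trend), two-sided, with Benjamini-Hochberg adjustment over all tested genes and a threshold of 0.05. All 39 genes passed that filter in both tables. Adjusted p-values come from this model, and fold changes on this scale understate those of low genes. The difference of the effects was fitted over the 12 libraries, for genes passing in both tables. The code was tested on simulated data. The 39 genes, the further lists and the tests were chosen with earlier results of these data known. Per-library values are given for called genes, the regulators Tfeb and Tfe3, Glb1, Lamp1 and Gpnmb, and for further genes picked after their values were seen. Of the other pathway genes up to 6 per direction with the largest change among called genes were taken, and some of them are not reported here. Alternatives were another pseudocount (0.1 or 5 FPKM), no filter or a mean of at least 5 FPKM, 2 scalings, array weights, a replicate block, 1 fit of the 12 libraries, mCherry libraries 1 and 2 averaged, and each library left out.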

Additional observations from a re-analysis of the deposited data

Results flagged for a closer look

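Among the 39 genes none passed the test for a difference between the effects of the models. Among the other pathway genes the effect on Ctsk differed, with an H-Ras(G12V) effect minus etoposide effect of -2.74 on the log2 scale (SE 0.57, limma adjusted p = 0.0218). Ctsk read 1.59, 2.01 and 0.790 FPKM with H-Ras(G12V) and 7.10, 6.70 and 5.50 FPKM with mCherry, and 28.9, 8.40 and 9.14 FPKM with etoposide and 3.86, 8.44 and 5.0 FPKM with DMSO. It fell with H-Ras(G12V), while its log2 fold change with etoposide, 1.12, did not pass (adjusted p = 0.357). The difference passed under 10 of 19 alternatives and was lost on leaving out H-Ras(G12V) library 1 or 3, mCherry library 1 or 2, or DMSO library 1 or 3 (adjusted p = 0.0531 to 0.0727). It was also lost with a pseudocount of 5 FPKM (-1.64, adjusted p = 0.0544) and with mCherry libraries 1 and 2 averaged (adjusted p = 0.0651). Without etoposide library 3 the difference passed for 4 of the other pathway genes in the higher and 12 in the lower direction (3.12% and 9.38% of 128), against 9.67% and 11.6% of all tested genes. Fibroblast and mural markers, such as Col1a2 at 3.11, 5.94 and 2.69 FPKM with H-Ras(G12V) and 59.9, 46.6 and 25.0 FPKM with mCherry, were lower in the same libraries, and their part in the value of Ctsk was not tested.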

How the results depend on the processing

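Of the 39 genes, 8 rose and 1 fell with H-Ras(G12V). The counts were 0 and 0 in 1 fit of the 12 libraries, 30 and 1 with array weights, which called 40.2% of all tested genes higher and 30.8% lower, and 3 and 0 with mCherry libraries 1 and 2 averaged. Leaving out each library gave 2 to 27 that rose and 0 to 1 that fell. With etoposide the count of genes that rose was 0, and 0 to 12 with each library left out. For the difference of the effects it was 0, and 0 to 1. Of the other pathway genes 11 rose and 3 fell with H-Ras(G12V), against 0 and 0 in 1 fit of the 12 libraries and 78 and 16 with array weights. Median-of-ratios scaling gave 7 and 6 (5.43% and 4.65%, against 8.26% and 8.51% of all tested genes). A common sum gave 5 and 8 (3.88% and 6.20%, against 6.77% and 10.5%). With mCherry libraries 1 and 2 averaged 1 rose and 2 fell (0.775% and 1.55%, against 3.01% and 1.94%). Leaving out each library gave 0 to 47 and 2 to 9, and with etoposide 0 to 30 and 0 to 6. The cause was not tested. For the 39 genes taken singly, 512 values with H-Ras(G12V) kept their call or moved by less than the SE, 53 lost a call, 41 gained one and 13 without a call moved further. With etoposide 525 kept theirs, 12 gained a call and 6 moved further. Wipi1, with a log2 fold change of -0.08, reversed to 0.28 with array weights (adjusted p = 0.00953) and to 0.31 without mCherry library 3 (adjusted p = 0.0383), within a range of -0.30 to 0.31 over the libraries left out. Array weights could not be fitted for etoposide or for the difference, since they did not converge.

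Libraries with the same number were not paired in the main fit, since no label says that a number marks a shared culture. Their deviations from the group means correlated at -0.0387, 0.0343 and 0.119 between H-Ras(G12V) and mCherry and at -0.265, -0.171 and -0.151 between etoposide and DMSO. Libraries with unlike numbers correlated at -0.120 to 0.111 and at 0.0272 to 0.192. With 3 libraries per group these values cannot show whether libraries are paired. With the replicate block 8 of the 39 genes rose and 1 fell with H-Ras(G12V), among 1010 and 671 of all tested genes. Of the 8 genes that rose without the block, Hexa and Gla did not pass with it (adjusted p = 0.0659 and 0.0661) and Tpp1 and Manba passed in addition (adjusted p = 0.0437 and 0.0375). With the block 0 passed with etoposide, where the count over all genes went from 56 to 12, and 0 passed in the difference of the effects, with an adjusted p of 0.0702 for Ctsk.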
